A study of Homo sapiens with 4 samples.

Results

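The 246 protein-coding genes of human chromosome 19 whose symbol is ZNF followed by a number were examined for open chromatin at their promoters in C4-2B and C4-2BER prostate cancer cells. They were chosen by symbol and position alone, from the 19689 protein-coding genes of the GENCODE annotation of hg38, of which 1432 lie on chromosome 19. Open chromatin was measured by ATAC-seq, which uses the Tn5 transposase to insert sequencing adapters where DNA is exposed, in 4 libraries, 2 of each line. C4-2B is a prostate adenocarcinoma line. C4-2BER was derived from C4-2B under continuous enzalutamide, an inhibitor of androgen receptor signalling, was kept in the drug according to the methods of the study, and is labelled as neuroendocrine-like. The labels give the same growth medium for both lines and name no drug in it. Each line is a single derivation, so resistance and the history of that derivation cannot be told apart. The study merged the libraries of a line before it called peaks, so each line has 1 list, no SD and no test, and every difference given here is between these 2 merged lists.

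Most ZNF genes of chromosome 19 encode proteins with tandem C2H2 zinc fingers that bind DNA, and many also carry a KRAB domain. The KRAB domain recruits TRIM28, which assembles SETDB1, a histone H3 lysine 9 methyltransferase, and HP1 proteins into repressed chromatin. Many of these proteins are known for silencing retroelements. The genes arose by repeated tandem duplication, lie in dense clusters, and their own gene bodies are often covered by H3 lysine 9 trimethylation, while many of their promoters sit in short CpG-rich stretches.

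Reference promoter sequences of 8 members are shown because they stand for the patterns described here. ZNF492, ZNF99, ZNF723 and ZNF681 lie in the cluster between 19.7 and 24.1 Mb and were stronger or seen only in C4-2BER. ZNF728 and ZNF91 lie in the same cluster and had a strong peak in both lines. ZNF154 and ZNF177 lie elsewhere and had a peak in neither. Each line gives the 120 bases directly before the canonical transcription start site (TSS) in hg38, read 5′ to 3′ on the strand of the gene, with CpG in capitals.
ZNF492 (chr19:22634204-22634323, plus strand): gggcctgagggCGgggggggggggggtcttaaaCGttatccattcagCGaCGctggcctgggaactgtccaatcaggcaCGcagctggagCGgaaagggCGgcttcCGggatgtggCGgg
ZNF99 (chr19:22784152-22784271, minus strand): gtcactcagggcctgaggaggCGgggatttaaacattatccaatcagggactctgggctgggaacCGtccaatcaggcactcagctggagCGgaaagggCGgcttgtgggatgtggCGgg
ZNF723 (chr19:22832171-22832290, plus strand): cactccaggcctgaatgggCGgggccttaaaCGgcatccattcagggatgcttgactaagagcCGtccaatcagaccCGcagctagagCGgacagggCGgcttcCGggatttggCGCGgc
ZNF681 (chr19:23758892-23759011, minus strand): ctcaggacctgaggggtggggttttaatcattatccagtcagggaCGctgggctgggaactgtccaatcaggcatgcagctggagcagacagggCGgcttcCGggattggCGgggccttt
ZNF728 (chr19:23003177-23003296, minus strand): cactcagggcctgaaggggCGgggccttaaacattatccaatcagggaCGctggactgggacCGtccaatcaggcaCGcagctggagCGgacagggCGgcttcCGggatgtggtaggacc
ZNF91 (chr19:23395472-23395591, minus strand): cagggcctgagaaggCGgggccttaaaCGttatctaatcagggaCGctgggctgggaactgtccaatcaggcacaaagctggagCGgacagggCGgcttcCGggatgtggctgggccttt
ZNF154 (chr19:57709205-57709324, minus strand): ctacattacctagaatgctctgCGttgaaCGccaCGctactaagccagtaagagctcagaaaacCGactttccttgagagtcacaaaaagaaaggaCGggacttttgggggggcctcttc
ZNF177 (chr19:9362893-9363012, plus strand): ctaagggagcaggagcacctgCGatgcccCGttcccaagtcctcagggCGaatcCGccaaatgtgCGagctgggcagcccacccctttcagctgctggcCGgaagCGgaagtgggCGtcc

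The 6 promoters from the cluster between 19.7 and 24.1 Mb are visibly related. The longest run of bases that a pair of them shared exactly was between 12 and 36 bases, 36 for ZNF681 and ZNF91. ZNF154 and ZNF177 shared at most 8 bases in a row with any of them and 5 with each other. Members that differed between the lines (ZNF681) and members that did not (ZNF91) thus have closely similar reference sequence before their start sites.

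A gene was scored as having a promoter peak when an interval of the list overlapped 2 kb either side of any TSS of its protein-coding transcripts. The members had a median of 4 such TSSs, and the other 1186 genes of chromosome 19 a median of 3. Recovered depth was 30.2 M reads for the C4-2B list, with 149676 intervals, and 25.2 M reads for the C4-2BER list, with 118728 intervals. Of these, 4454 and 4080 intervals lie on chromosome 19.

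The promoters of chromosome 19 ZNF genes were open in both lines almost throughout. A promoter peak was found in both lists for 231 of the 246 members (93.9%, Wilson 95% interval 90.2 to 96.3%), beside 77.7% of all protein-coding genes. Of the other chromosome 19 genes, 903 of 1186 (76.1%) had a peak in both lists. The 262 ZNF genes of other chromosomes had a share of 90.8%. No test was made between these groups of genes, which differ in their number of TSSs.

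The members with a peak in 1 line lay on the C4-2BER side. A promoter peak was called in C4-2BER only for 8 members (3.25%, interval 1.66 to 6.29%), near the 3.39% of all protein-coding genes. A peak in C4-2B only was found for 0 of 246 members, for which the interval reaches up to 1.54%, beside 2.83% of all protein-coding genes. The other chromosome 19 genes were split almost evenly, with 48 (4.05%) in C4-2B only and 44 (3.71%) in C4-2BER only. A peak in neither list was found for 7 members (2.85%, interval 1.39 to 5.76%), beside 16.0% of all protein-coding genes and 191 (16.1%) of the other genes of the chromosome. The 262 ZNF genes of other chromosomes stood close to the members. Of these, 2 (0.763%) had a peak in C4-2B only, 8 (3.05%) in C4-2BER only and 14 (5.34%) in neither. These intervals cover counting error only.

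**Figure D1:**
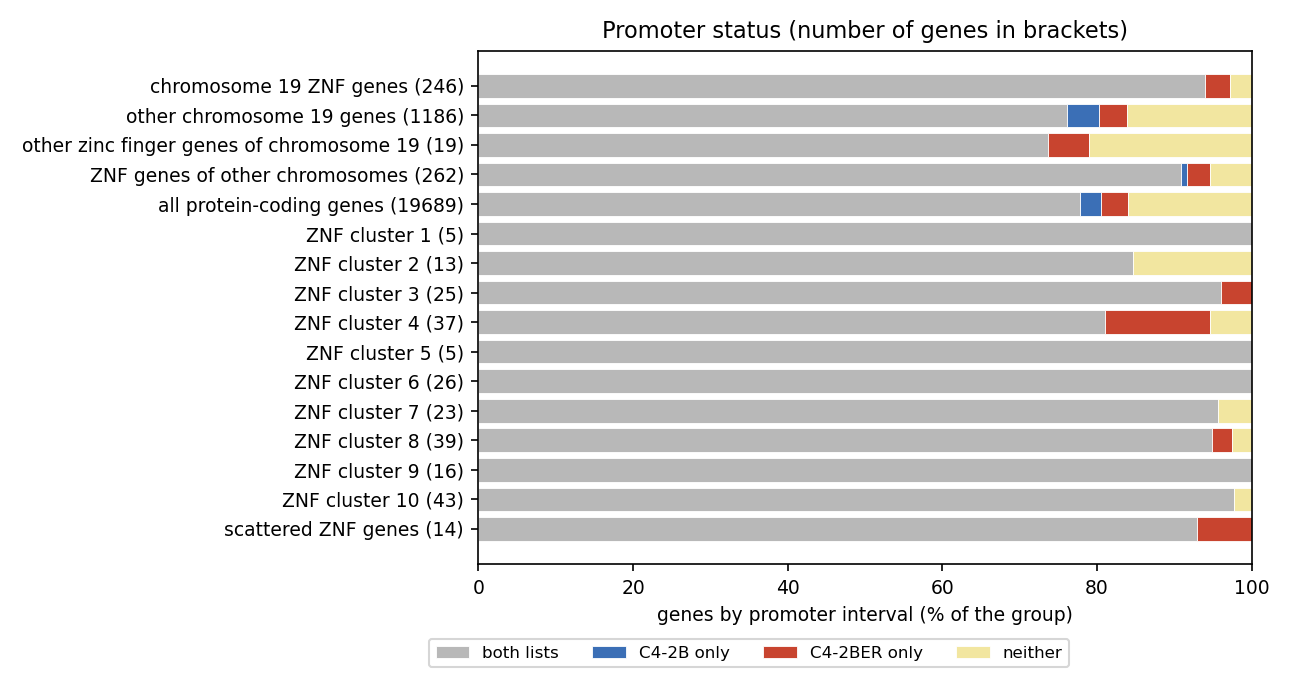
Share of genes (%) with a promoter interval in both lists, C4-2B only, C4-2BER only or neither, for the members, 4 other groups of genes and each ZNF cluster, with the number of genes in brackets. The members have no C4-2B only segment, and cluster 4 has the widest C4-2BER only segment among the clusters, 5 of 37 genes.

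The peaks at these promoters were among the strong peaks of each list. The strongest promoter peak of a member had a median rank percentile of 95.04 in C4-2B and 95.7 in C4-2BER, where the rank percentile is the place of a peak by −log10 p within its own list. For the other chromosome 19 genes the medians were 89.4 and 92.5, and for all protein-coding genes 91.6 and 92.6. ZNF genes of other chromosomes ranked like the members, with medians of 95.4 and 95.1. In median reads at the summit the members and the other chromosome 19 genes were alike, but the others were more widely spread. The median was 114 in C4-2B for both and 110 (members) and 113 (others) in C4-2BER. The quartiles in C4-2B were 85.5 and 136 for the members and 64 and 156 for the others. In C4-2BER they were 81 and 132, and 71 and 151. The −log10 p behind the rank is set against local background, which was lower at the members. Its median at their summits was 3.09 (C4-2B) and 3.79 (C4-2BER) times the genome-wide floor, beside 4.76 and 6.01 times for the other chromosome 19 genes.

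Member peaks sat at the start site and were somewhat wider than those of other chromosome 19 genes, but narrower than those of all protein-coding genes. Their median width was 928 bp in C4-2B and 1001 bp in C4-2BER, beside 821 and 926 bp for the other chromosome 19 genes. It was 989 and 1063 bp for all protein-coding genes, and 1058 and 1129 bp for ZNF genes of other chromosomes. The median summit lay at -42 bp (C4-2B) and -43 bp (C4-2BER) from the nearest TSS, where negative is upstream. The strongest interval covered the canonical TSS in 213 of 231 members in C4-2B (92.2%) and in 224 of 239 in C4-2BER (93.7%), whereas the shares among the other chromosome 19 genes were 60.3% and 65.2%. Among all protein-coding genes they were 72.7% and 77.8%, and among ZNF genes of other chromosomes 85.4% and 90.2%. In 229 of the 231 members with a peak in both lists the strongest intervals of the lines overlapped.

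ZNF564 and ZNF77, zinc finger genes of clusters 3 and 1, give an example of the strong and equal promoters. ZNF564, whose interval also serves the gene listed as ENSG00000196826, held 201 and 185 reads, the second being 221 after scaling to the depth of C4-2B, and ranked at percentiles 99.85 and 99.7. ZNF77 held 186 and 168 reads. The third of the strongest in C4-2B was ZNF627, with 181 and 163 reads. In C4-2BER the strongest were ZNF574 (162 reads in C4-2B against 177 in C4-2BER), ZNF564 and ZNF527 (169 and 164). For ZNF77, ZNF564, ZNF627 and ZNF527 the counting interval of the depth-scaled ratio included 1, and for ZNF574 it ran from 1.05 to 1.63.

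Some members cannot be separated from a neighbour by position. In C4-2B 37 of 231 members, and in C4-2BER 37 of 239, had a strongest interval that also lay in the promoter window of another protein-coding gene, and for 16 of them in each list the neighbour was another member. ZNF28 and ZNF468, for example, share 1 interval of 88 reads in C4-2B against 68 in C4-2BER. A peak there says that the shared start region is open, not which of the genes it serves.

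To compare levels, reads over the strongest summit were recovered from the deposited fold and −log10 p and scaled by the ratio of recovered depths, 1.20. Across all protein-coding genes with a peak in both lists the median log2 ratio of C4-2BER over C4-2B was 0.14, so values are best read against that shift. The members' median was 0.19 (quartiles 0.11 and 0.34), 0.21 for the other chromosome 19 genes. Of the 231 members 201 (87.0%) were higher in C4-2BER, beside 74.9% of all such genes and 86.3% of the other chromosome 19 genes. Against the all-gene median of 0.14, 157 of the 231 were above and 74 were not. By rank percentile, which depends on the length of each list, 145 of 231 (62.8%) stood higher in C4-2BER, beside 60.6% of all genes and 69.0% of the other chromosome 19 genes.

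Large differences were few, at shares near those of the other genes of the chromosome. The depth-scaled reads were at least 2 times higher in C4-2BER for 10 members (4.33%, interval 2.37 to 7.78%), beside 3.06% of all protein-coding genes and 4.76% of the other chromosome 19 genes. They were at least 2 times higher in C4-2B for 0 members (interval up to 1.64%), beside 1.39% of all protein-coding genes and 5 of 903 (0.554%) of the others on the chromosome. The exact 95% counting interval of the ratio lay above 1 for 45 members (19.5%). This share was 24.0% for the other chromosome 19 genes and 11.5% for all protein-coding genes. The interval lay below 1 for 1 member (0.433%), beside 1.55% of the other chromosome 19 genes and 3.37% of all. No more than 9 of the 231 members ranked under percentile 50 in C4-2B, and 6 of those 9 are among the 10 that were at least 2 times higher in C4-2BER. With a peak in both lists, 87 of 903 other chromosome 19 genes and 1163 of all 15305 protein-coding genes ranked under percentile 50. Among those at least 2 times higher in C4-2BER, 24 of 43 and 325 of 469 did so. A low C4-2B rank at high ratios was thus not particular to the members.

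**Figure D2:**
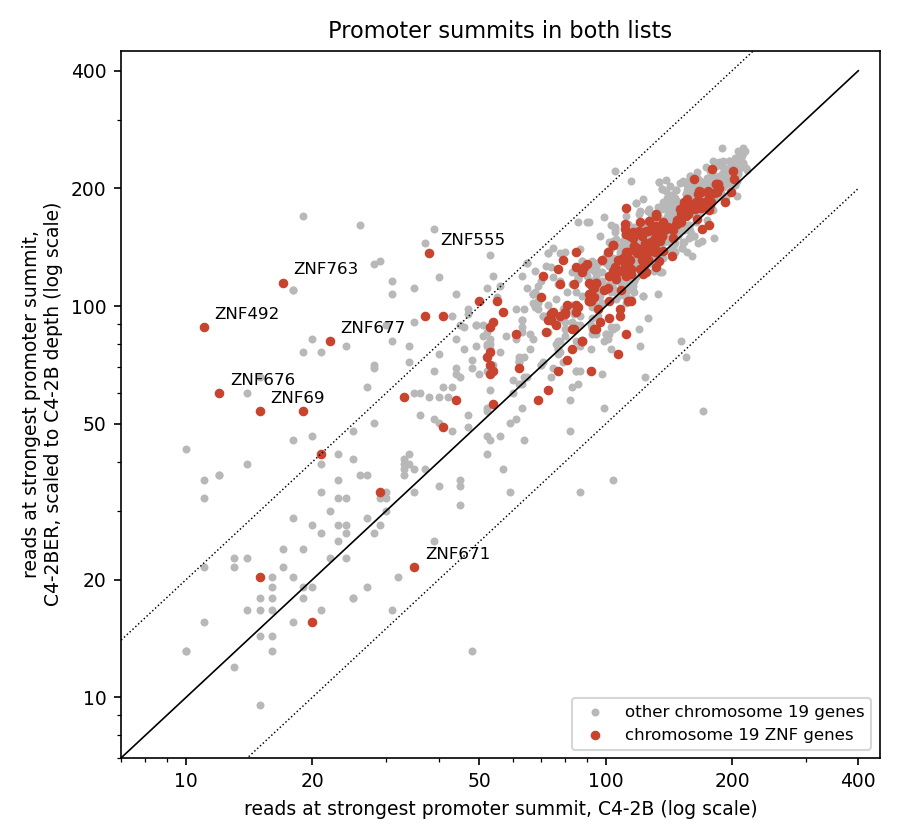
Reads at the strongest promoter summit in C4-2B (x axis) and in C4-2BER scaled to the depth of C4-2B (y axis), both on log scales, for 231 members and 903 other chromosome 19 genes with an interval in both lists; the solid line marks equal values and the dotted lines a ratio of 2 either way. Most members lie close to the solid line above 50 reads, and those named above the upper dotted line had between 11 and 38 reads in C4-2B.

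The highest ratio belonged to ZNF492, a zinc finger gene in the cluster between 19.7 and 24.1 Mb. Its promoter had 11 reads at the summit in C4-2B against 74 in C4-2BER, a depth-scaled ratio of 8.05 (exact counting interval 4.25 to 16.8). The interval widened from 318 to 758 bp, and the rank rose from percentile 6.08 to 92.0. In C4-2B it was thus a peak near the bottom of the list, and in C4-2BER one near the top.

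ZNF763 and ZNF69 are neighbours but for 1 gene in the cluster between 11.5 and 12.6 Mb. ZNF763 held 17 reads in C4-2B against 96 in C4-2BER, a ratio of 6.76 (4.01 to 12.1). ZNF69 held 15 and 45 reads, a ratio of 3.59 (1.96 to 6.93). ZNF700, which lies between them, held 170 and 132 reads, a ratio of 0.929 (0.735 to 1.17), so the change was not shared by every promoter of the stretch.

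The other members with the highest ratios were spread over clusters 4, 8 and 1. ZNF676 held 12 reads in C4-2B against 50 in C4-2BER (ratio 4.99, interval 2.62 to 10.3). ZNF677 held 22 and 68 reads (3.70, 2.26 to 6.28), and its neighbour ZNF665 37 and 79 (2.56, 1.71 to 3.88). ZNF555 held 38 and 114 reads (3.59, 2.47 to 5.33), and it was the strongest of these in C4-2BER. The last 3 of the 10 were ZNF135, ZNF114 and ZNF709, with ratios of 2.83, 2.31 and 2.06. ZNF665, ZNF135, ZNF114 and ZNF709 are outside the rule for named genes and are given because the count of 10 is otherwise incomplete.

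The lowest ratios were small by comparison. ZNF671, a gene known for promoter methylation in several tumours, held 35 reads in C4-2B against 18 in C4-2BER, a ratio of 0.615 with a counting interval of 0.328 to 1.12. ZNF730 held 107 and 63 reads, a ratio of 0.705 (0.508 to 0.971), and was the 1 member whose interval lay below 1. ZNF728 held 112 and 71 reads (0.759, 0.555 to 1.03). ZNF382 (92 and 57 reads, ratio 0.741), which shares its interval with ZNF529, and ZNF835 (20 and 13 reads, ratio 0.778) also had intervals that included 1.

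The 8 members with a peak in C4-2BER only had peaks of very different strength. ZNF681 (chr19:23758459-23759117) held 106 reads in C4-2BER, in a peak of 659 bp at rank percentile 92.3 with a −log10 q of 63.5. The nearest C4-2B interval to any of its TSSs was 3845 bp away. ZNF681 was therefore the 1 member with a promoter peak of typical member strength in C4-2BER and none in C4-2B.

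ZNF98, ZNF541 and ZNF99 had peaks of middle strength in C4-2BER. ZNF98 held 38 reads (957 bp wide, rank percentile 78.2), ZNF541 33 reads (421 bp, 76.6) and ZNF99 29 reads (430 bp, 71.6). All 3 summits lay within 100 bp upstream of a TSS. The nearest C4-2B interval was 101571 bp from a TSS of ZNF98 and 149778 bp from one of ZNF99, and 8433 bp from one of ZNF541.

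The other 4 were weak. ZNF534 held 19 reads in C4-2BER (−log10 q 11.5), ZNF486 12 (5.05), ZNF723 11 (4.24) and ZNF439 11 (4.24). The ZNF439 summit lay at -939 bp from its TSS and did not cover the canonical TSS, unlike those of ZNF534, ZNF486 and ZNF723, whose summits were within 50 bp of a TSS. Since the weakest summits of the lists held 8 (C4-2B) and 7 (C4-2BER) reads, peaks of this size lie near the limit of what was called, and a C4-2B peak just under that limit would not be listed. When a line-only gene had to have a peak with a −log10 q of at least 10, set against every peak of the other list, 5 of the 8 members were left (ZNF681, ZNF98, ZNF541, ZNF99 and ZNF534), and 0 on the C4-2B side. Under that rule 1.52% of the other chromosome 19 genes were in C4-2BER only and 1.01% in C4-2B only.

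The members fall into 10 clusters of at least 5 genes, separated by gaps of over 500 kb, with 14 members scattered between them. The clusters hold 5, 13, 25, 37, 5, 26, 23, 39, 16 and 43 members, in order along the chromosome. In clusters 1, 5, 6 and 9 every member (5, 5, 26 and 16) had a promoter peak in both lists. Clusters 3 and 8 each had 1 C4-2BER only member, ZNF439 and ZNF534, and the scattered genes had ZNF541.

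**Figure D3:**
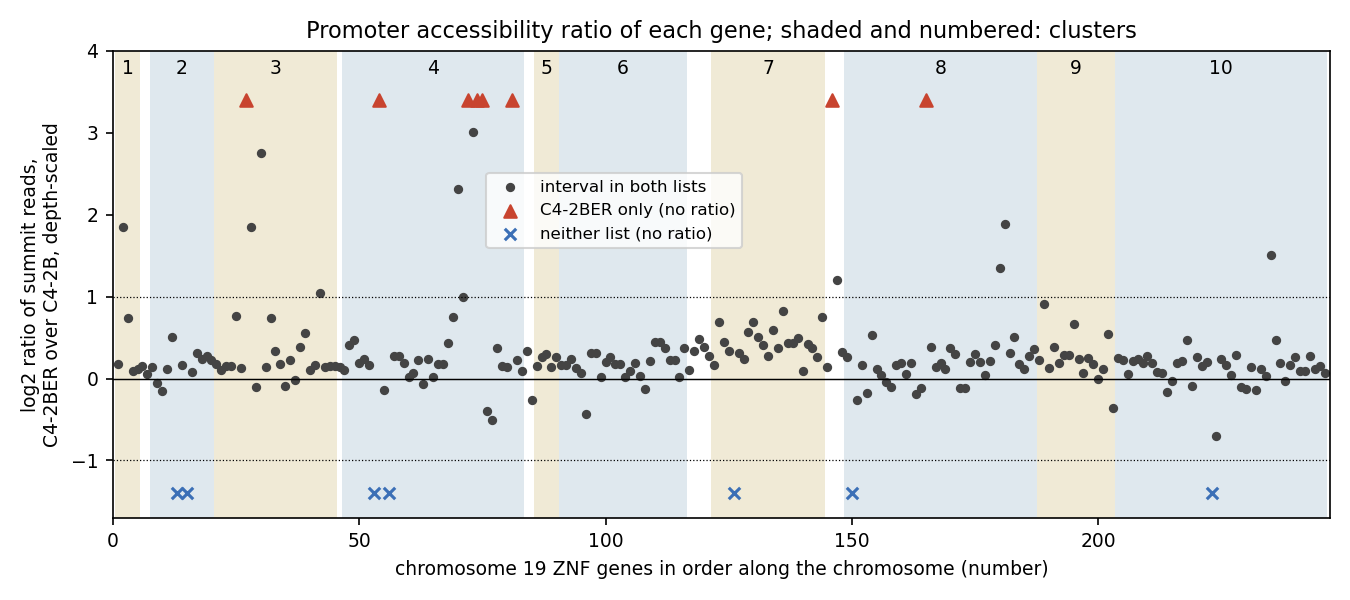
Log2 ratio of depth-scaled summit reads, C4-2BER over C4-2B (y axis), for the members in order along chromosome 19 (x axis), with clusters shaded and numbered; triangles and crosses, set at fixed heights, mark members with no ratio. Triangles (C4-2BER only, 8 members) gather in cluster 4, and the points of cluster 7 lie above 0 for 22 of 22 members.

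Cluster 4, between 19.7 and 24.1 Mb next to the centromere, held 5 of the 8 C4-2BER only members. They were ZNF486, ZNF98, ZNF99, ZNF723 and ZNF681, which is 5 of its 37 members (13.5%, interval 5.91 to 27.98%), beside 3 of 209 (1.44%) in the rest of the list. It also held ZNF492 and ZNF676, 2 of the 10 members with at least 2 times more reads. The cluster was noticed after its values were seen, and the difference from the other clusters was not tested.

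Some of these promoters of cluster 4 were neighbours, while ZNF486 and ZNF681 lay apart from them. Runs were sought of at least 3 neighbouring members, each of them C4-2BER only or with a ratio of at least 1.5. That ratio was reached by 22 of 231 members (9.52%), beside 7.62% of all protein-coding genes and 13.4% of the other chromosome 19 genes. A single run was found along the chromosome, and it held 7 members, ZNF257, ZNF676, ZNF729, ZNF98, ZNF492, ZNF99 and ZNF723. With 2 kb on either side it spans chr19:22050430-22860667, or 810 kb, and no other protein-coding gene has its canonical TSS there. In C4-2B 4 promoters of the run had a peak, with 54 reads at ZNF257, 12 at ZNF676, 21 at ZNF729 and 11 at ZNF492. In C4-2BER all 7 had one, as the rule for the run requires. They held 76, 50, 35, 38, 74, 29 and 11 reads in the order of the genes. Across the whole stretch the C4-2B list held 4 intervals, none of them distal, and the C4-2BER list 12, of which 2 were distal. The other 10 were promoter intervals, so most of this contrast also follows from the rule. The run was defined from these values, so they are not separate support for it.

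The ends of the run differed. Towards the centromere its neighbour ZNF728 held 112 reads in C4-2B against 71 in C4-2BER, and the next, ZNF730, 107 and 63, both lower in C4-2BER after scaling. On the other side ZNF208 held 15 and 17 reads (ratio 1.36, interval 0.637 to 2.92), a weak promoter in both lines whose interval includes the ratios of ZNF257 and ZNF729, so that this end is set by the threshold of 1.5. Beyond these, ZNF43 and ZNF724 had ratios of 1.13 and 1.30.

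**Figure D4:**
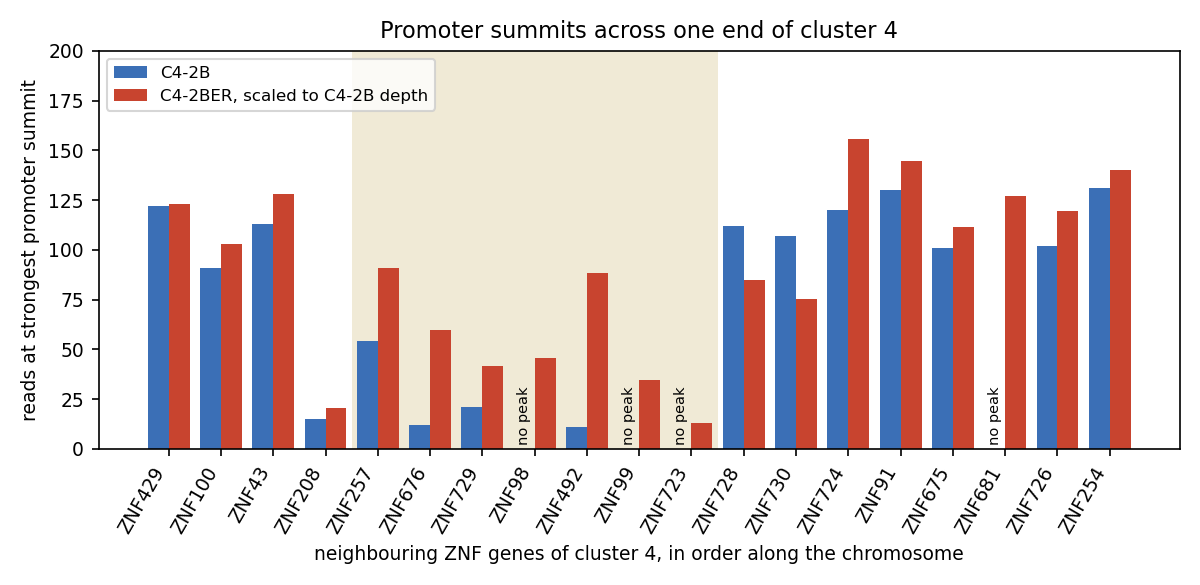
Reads at the strongest promoter summit of neighbouring ZNF genes in cluster 4, for C4-2B (blue) and C4-2BER scaled to the depth of C4-2B (red), with the run of 7 genes shaded and missing peaks marked. Inside the shaded run the red bars are above the blue at every gene, as the rule for the run requires. ZNF728 and ZNF730 next to the run show the opposite.

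Duplicated genes can share sequence in which short reads cannot be placed. The study kept reads with a mapping quality of at least 10. Of all 50-base words within 500 bp of the canonical TSS, a median of 98.95% occurred once in hg38 for the members of cluster 4 and of 100% for the other members. For the 7 genes of the run the median was 92.9%, and the lowest share was 79.7% (ZNF676). The canonical TSS of ZNF676 is at 22196951, but its strongest C4-2BER interval was at 22215303 to 22216044. The strongest C4-2B interval did not cover that TSS either, so the 79.7% does not describe the sequence where its reads were counted. The lowest shares of all members lay in cluster 8, at ZNF468 (67.0%) and ZNF28 (68.5%). ZNF208, next to the run, had a share of 79.5% with similar reads in both lines, and ZNF681 a share of 100%. The part of sequence uniqueness in these differences was not tested.

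Cluster 7, between 43.5 and 44.5 Mb, stood higher in C4-2BER by a small amount, together with its non-ZNF neighbours. All 22 of its members with a peak in both lists were higher in C4-2BER, beside 74.9% of all genes, with a median log2 ratio of 0.43, and none reached a ratio of 2. The 11 other genes inside its span with a peak in both lists were all higher too, with a median of 0.45. For the 39 other genes within 1 Mb on either side the median was 0.39, and 32 were higher. The medians of members in the other clusters lay between 0.16 and 0.26 and that of the scattered genes at 0.27. Its promoter peaks were the weakest of the larger clusters in C4-2B, with a median of 85 reads and 733.5 bp, and reached 102 reads and 867.5 bp in C4-2BER. The cluster was singled out after its values were seen.

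The 7 members with a peak in neither list were ZNF177, ZNF560, ZNF90, ZNF626, ZNF404, ZNF577 and ZNF154. ZNF177 and ZNF154 are both known for promoter methylation in tumours. The nearest interval to a TSS was 28478 bp (C4-2B) and 28591 bp (C4-2BER) away at ZNF177, and 39686 and 39679 bp away at ZNF560. At ZNF154 it was 18110 and 18243 bp away, and that interval is the promoter peak of ZNF671.

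ZNF90, ZNF626 and ZNF577 were likewise without a promoter peak but differed in their surroundings. A C4-2B interval of 19 reads lay 4494 bp from the TSS of ZNF90, and the nearest in C4-2BER 25168 bp away. A C4-2BER interval of 7 reads lay 3553 bp from ZNF626, and the nearest in C4-2B 42505 bp away. At ZNF577 the distances were 13524 and 13393 bp.

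ZNF404 differs from the other 6 in its annotation. Its 1 protein-coding TSS lies 17421 bp inside the gene, and the upstream end of the whole gene, which other transcripts use, was 85 bp from a C4-2B interval of 56 reads and 6 bp from a C4-2BER interval of 70 reads. Counted from that end it would have a promoter peak in both lines. For the other 6 the nearest interval to the upstream end of the gene was at least 3553 bp away in either list.

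The gene lists were chosen from general knowledge of these families, with earlier results of these data known. The promoters of the 16 KRAB co-repressor genes all had a peak in both lists, and 16 of 16 were higher in C4-2BER, beside 74.9% of all genes, with a median log2 ratio of 0.18 and none at 2 times. Against the all-gene median of 0.14, 11 were above and 5 were not. TRIM28 itself, the adaptor that KRAB domains bind, held 193 reads in C4-2B against 182 in C4-2BER (log2 ratio 0.17). SETDB1 held 123 and 119 reads (0.21), and CBX5, which encodes HP1 alpha, 198 and 183 (0.15). The highest of the 16 were CHD4 and ATRX, chromatin remodellers, at 0.60 and 0.58.

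Of the 8 members known for promoter methylation in tumours, 6 had a peak in both lists and ZNF154 and ZNF177 in neither. Their median log2 ratio was 0.03, below the 0.14 of all genes, and 3 of the 6 were higher in C4-2BER, namely ZNF331 (132 and 142 reads, log2 ratio 0.36), ZNF132 (78 and 79, 0.28) and ZNF582 (126 and 110, 0.06). ZNF471 had a strong and equal promoter, with 176 reads in C4-2B against 147 in C4-2BER. ZNF382 and ZNF671 stood at log2 ratios of -0.43 and -0.70, the 2 lowest of the list. No member of the list was at 2 times in either direction.

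All 10 members known to bind retroelements had a peak in both lists. ZNF91, which binds SVA elements, held 130 reads in C4-2B against 121 in C4-2BER (log2 ratio 0.16), and ZNF93, which binds LINE-1 elements, is in the same cluster. The median log2 ratio of the list was 0.17, and 8 of 10 were higher in C4-2BER, near the 74.9% of all genes and the 87.0% of members. The highest was ZNF257 (54 and 76 reads, 0.75), the first gene of the run in cluster 4, and the lowest were ZNF587 (-0.13) and ZNF468 (-0.11). None was at 2 times.

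The other zinc finger genes of chromosome 19, those of the ZFP, ZSCAN, ZIM, ZIK and related families, numbered 19. A peak was found in both lists for 14, in C4-2BER only for ZSCAN1 and in neither for ZIM3, ZSCAN4, ZSCAN5B and ZSCAN5C. Of the 14, 12 were higher in C4-2BER, with a median log2 ratio of 0.11, and 1, ZSCAN18, was at least 2 times higher. They thus included genes closed in both lines at a share (4 of 19) nearer to the 16.0% of all genes than to the 2.85% of the ZNF members.

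The sequence before the start sites was set beside status. In the 250 bases before the canonical TSS the members had a median GC content of 59.0% and a median CpG ratio (observed over expected) of 0.747, beside 63.6% and 0.699 for the other chromosome 19 genes. Cluster 4 stood lowest, with a median CpG ratio of 0.453 against 0.773 in the other members. Ordered by CpG ratio, the 62 lowest members (0.0840 to 0.561) included 5 of the 8 C4-2BER only members and 4 of the 7 in neither list, and 30 of the 62 were members of cluster 4. Among the 62 highest (0.861 to 1.29) there was 1 of each kind. Of the 62 lowest, the 30 in cluster 4 included 4 C4-2BER only members and the 32 outside it 1, ZNF439. The 7 other members of cluster 4 included 1, ZNF99.

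Low CpG content did not go with weak peaks among members open in both lines. The median rank percentile in C4-2B was 94.8 in the 62 lowest and 95.3 in the 62 highest, and the median log2 ratios were 0.18 and 0.20. Peaks were narrower at low CpG, with medians of 843 and 885 bp in the lowest group and of 1029 and 1075 bp in the highest, for C4-2B and C4-2BER in turn. Cluster 4 again had narrow peaks, with medians of 795.5 bp in C4-2B and 809 bp in C4-2BER.

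Motifs were searched as exact letters on both strands of the 250 bases. The ETS core CCGGAAG was in 75 members (30.5%, interval 25.1 to 36.5%), beside 12.9% of the other chromosome 19 genes and 11.8% of all promoters of the same length. The NFY box CCAAT was in 125 (50.8%), beside 36.3% and 34.4%, and it can be read in the sequences of ZNF492 and ZNF91 printed here. The SP box GGGCGG was in 65.0%, beside 64.8% and 59.3%. The TATA box TATAAA was in 7 members (2.85%), beside 7.42% and 9.31%, and the E-box CACGTG in 8 (3.25%), beside 8.69% and 7.86%.

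Ratios were similar with and without a motif. The median log2 ratio was 0.19 in members with and 0.19 in members without the ETS core, and 4 of the 8 C4-2BER only members held it. The SP box was in 8 of these 8 promoters and in 150 of the 231 open in both lines. The PAX5 core GCGTGAC was in 5 members (2.03%), beside 2.84% of all promoters, and in 0 of the 8. In the longer window of the last section the direction was reversed. There it was in 36 members (14.63%), beside 10.64% of all promoters, and in 1 of the 8. The letters of a motif in these windows are not evidence of binding, and matched promoters of duplicated genes are not independent of each other.

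Away from the promoters the ZNF clusters were poor in open sites. Distal intervals, whose summit lies over 2 kb from every protein-coding TSS, were counted within the 14.4 Mb of the clusters. There were 276 in the C4-2B list (19.1 per Mb) and 245 in the C4-2BER list (17.0 per Mb). In the remaining 44.02 Mb of chromosome 19 there were 56.6 and 49.5 per Mb. The clusters thus carried promoter peaks of high rank in a setting with few distal peaks, in both lines alike. The shares of distal intervals found in 1 list only were 36.2% (interval 30.8 to 42.1%) for C4-2B and 30.2% (24.8 to 36.2%) for C4-2BER inside the clusters. Outside they were 32.3% (30.5 to 34.2%) and 22.1% (20.4 to 23.8%).

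**Figure D5:**
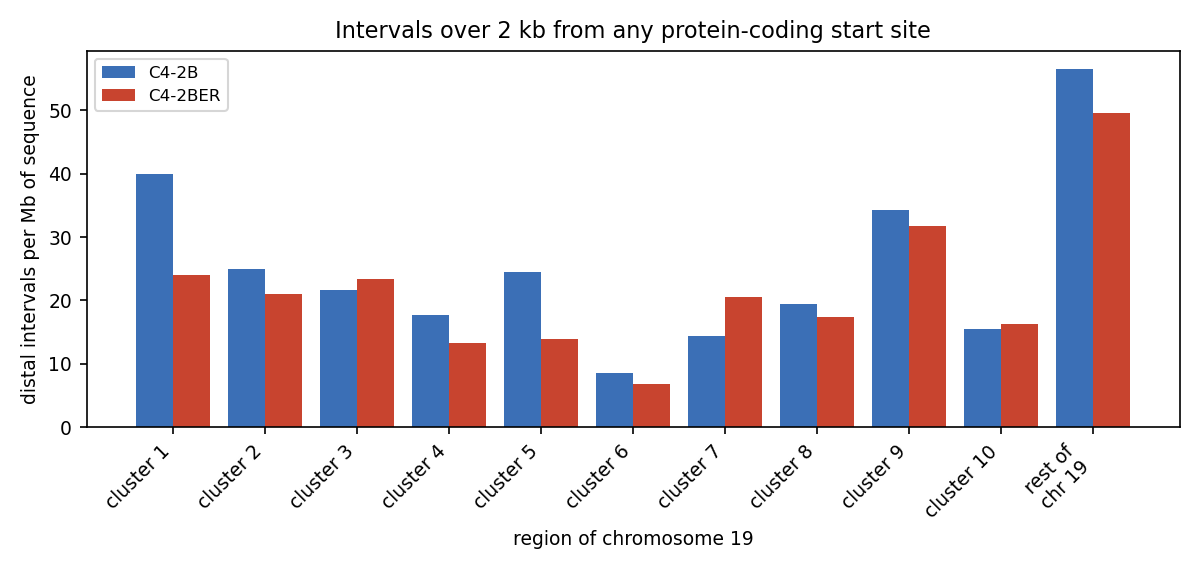
Distal intervals per Mb of sequence (y axis) in each ZNF cluster and in the rest of chromosome 19 (x axis), for C4-2B (blue) and C4-2BER (red). All clusters lie below the rest of the chromosome in both lines, and cluster 6 is lowest with 8.56 and 6.73 per Mb.

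Single clusters differed in their distal intervals. Cluster 6 had 14 in C4-2B and 11 in C4-2BER, and cluster 4 had 79 and 59. Clusters 3, 7 and 10 had more in C4-2BER than in C4-2B, with 25 and 27, 14 and 20, and 20 and 21. In cluster 7, where all promoter ratios were above 1, 11 of the 20 C4-2BER distal intervals had no C4-2B counterpart (55.0%, interval 34.2 to 74.2%). Inside the gene bodies of the members there were 88 distal intervals in 41 members (16.7%) in C4-2B, the longer list, and 50 in 25 members (10.2%) in C4-2BER. Of the other chromosome 19 genes 47.6% and 45.6% had one.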

How the data were processed

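Peak lists from 4 ATAC-seq libraries were used, 1 list for each line. According to the submitters' notes and the methods of the study, reads were aligned to hg38 with Bowtie2, filtered for duplicates and a mapping quality of at least 10, and merged by line before MACS2 called peaks. Among the deposited columns, fold enrichment is the ratio of summit reads to local background after 1 is added to each. Summit −log10 p and −log10 q were taken as deposited, and another deposited column gives the summit offset in bp. The authors' score column was not used. Whole reads at each summit were recovered from fold and −log10 p, which solved 100% of summits and was tested on simulated data, and the lowest background gave the depth under a genome size of 2700000000 bp. Each interval was counted once, at its strongest summit, and ratios were scaled by 1.20. GENCODE release 44 supplied genes, and a gap of over 500 kb started a new cluster. Scripts used Python 3.11.15, numpy 2.4.6, pandas 2.3.3, scipy 1.17.1 and matplotlib 3.10.9. Shares have Wilson 95% intervals and ratios exact ones from the recovered reads. Both cover counting error only. Members, lists and tests were chosen with earlier results of these data known. Named by rule were members in 1 list only or in neither, the 5 highest and lowest ratios with ties, the 3 strongest in each list and list members. A table of proteins was not used here.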

Additional observations from a re-analysis of the deposited data

How the results depend on the processing

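Of 77 recomputed values, 59 stayed near the reported one by a set rule, and no median log2 ratio changed sign. The rule did not set motif shares beside those of other genes. There the TATA box and the PAX5 core changed direction, as given below. The rule was 1.5 times for counts and densities, the interval for shares, the quartiles for the CpG ratio and the interquartile range for a median log2 ratio. It let pass a fall of the members' median log2 ratio from 0.19 to 0.05 when scaled by the median ratio of all genes. With that scaling 157 of the 231 members were higher in C4-2BER, instead of 201. Values beyond the rule are given here, and their cause was not tested. With a −log10 q of at least 10 in both lists, 11 members had a peak in neither list and 1 (ZNF835) in C4-2B only. Of the other chromosome 19 genes 24.3% were then in neither and 2.45% in C4-2B only. Among the top 50000 peaks of each list the numbers were 16 in C4-2BER only, 13 in neither and 1, ZNF671, in C4-2B only. The other chromosome 19 genes had shares of 8.26% in C4-2BER only, 28.25% in neither and 0.843% in C4-2B only, so they too leaned to C4-2BER. With −log10 q of at least 10 needed for line-only genes alone, 5 were in C4-2BER only, beside 1.52% of the other chromosome 19 genes. At a ratio of 1.5 instead of 2, 22 members (9.52%) were called higher in C4-2BER and 1 (0.433%) in C4-2B. These shares were 13.4% and 1.66% for the other chromosome 19 genes and 7.62% and 3.47% for all protein-coding genes. Distal intervals at −log10 q of at least 10 numbered 10.5 (C4-2B) and 9.09 (C4-2BER) per Mb inside clusters and 34.7 and 29.6 outside. Of the C4-2BER ones, 24.4% inside clusters and 21.35% outside were in 1 list only, closer than without that threshold. In a longer window, 1000 bases either side of the TSS, the ETS core was in 56.1% of members and the SP box in 93.5%. The NFY box was in 91.1%, the TATA box in 57.7% and the E-box in 23.6%. For all promoters these shares were 28.54%, 81.99%, 87.05%, 49.35% and 29.24% in turn. For the other chromosome 19 genes they were 30.86%, 87.18%, 84.99%, 32.21% and 32.88%. The TATA box was thus more frequent in members than in both groups, the reverse of the 250 bases. The PAX5 core was in 14.63% of members, beside 10.64% of all promoters and 11.89% of the other chromosome 19 genes, also the reverse. ZNF681, ZNF98, ZNF99 and ZNF541 stayed in C4-2BER only under 10 of 10 settings, ZNF534 under 9, ZNF486 under 7, and ZNF439 and ZNF723 under 6. No paired analysis was possible because both libraries of a line entered a single peak call, and for the same reason no library could be left out. Depth limits the weakest calls, since sites under 8 (C4-2B) or 7 (C4-2BER) summit reads are not in the lists.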
